A study of Mus musculus with 8 samples.

Results

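A group of 9 regulators of muscle gene expression was followed in mouse atria after loss of Chd4, a chromatin remodeller. They were the MEF2 factors Mef2a, Mef2c and Mef2d, the serum response factor gene Srf and its partner Myocd, the TEAD factors Tead1 and Tead4, the homeobox factor Six4, and the SOX factor Sox6. Members were the rows of the deposited count table whose symbol was one of these 9 names, out of 54532 genes in the table and 18033 genes tested. Each name matched 1 gene identifier, and all 9 members passed the filter on low counts.

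The knockout (KO) group was 4 libraries of atria from Chd4flox/flox mice that had received AAV9:Nppa-Cre on postnatal day 2. The control group was 4 libraries from Chd4flox/flox mice that had received AAV9:Nppa-EGFP on the same day, so every mouse carried the floxed alleles and an AAV9 vector, although sample titles call the controls WT. Nppa is expressed by atrial muscle cells, which limits where its promoter drives Cre, while RNA came from whole left and right atria with all their cell types. The sources used here give neither the age at collection nor how many mice a library holds. Effects of Cre or EGFP themselves cannot be told apart from loss of Chd4.

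MEF2 and SRF proteins share the MADS box, a DNA-binding domain. MEF2 factors bind AT-rich sites in muscle genes, and SRF binds the CArG box with partners such as myocardin, the product of Myocd. TEAD factors need a coactivator such as YAP, sine oculis homeobox factors such as SIX4 act with EYA proteins in skeletal muscle, and SOX6 is known from mouse skeletal muscle as a repressor of slow-fibre genes.

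Total counts were 34002292 to 38228982 in KO and 39804625 to 40588007 in control, so the least abundant member, Six4, still had 108 to 171 reads in each library. Levels are CPM (read counts scaled to a common library total) after TMM scaling. Chd4 itself averaged 185 ± 12.4 CPM in KO against 292 ± 13.3 CPM in control (SD, n = 4 each; edgeR adjusted p = 1.86e-05). KO 2 and control 2 stood apart from the other libraries on the second principal component, which held 20.3% of the variance. Y-linked transcripts were low in KO 2, control 1 and control 2 and high in the other 5 libraries. None of 12 cardiomyocyte markers was at 0, and their summed level was 60945 to 76624 CPM in KO and 91594 to 101105 CPM in control. In the other 7 marker lists, no tested marker was at 0 in all libraries.

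Of the 9 members, 3 fell in KO (Srf, Mef2a and Tead1), 0 rose and 6 were not called at an adjusted p under 0.05 by edgeR's quasi-likelihood test. Among all tested genes 27.9% were called, 13.1% lower and 14.8% higher. The same 3 members did not overlap between the groups, all lower in KO, beside 29.2% of all tested genes (13.9% lower and 15.3% higher). The members' median log2 fold change was -0.20, against 0.01 over all tested genes. The log2 fold change was below 0 for 7 members and above 0 for Mef2c and Myocd. DESeq2 and limma-voom also called 3 members lower and 0 higher. The count of lower members was 2 without KO 2 and 2 without KO 3, where Tead1 lost its call (adjusted p = 0.0523 and 0.0552). With library size as the only scaling it was 1, with Mef2a at an adjusted p of 0.0541 and Tead1 at 0.0502. In whole atria, fewer cells of a type and less RNA per cell cannot be told apart. Of the 12 cardiomyocyte markers, 9 fell, 2 rose (Mybpc3 and Pln) and 1 was not called. Their median log2 fold change was -0.38. The part of cell make-up in the members' changes was not tested.

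**Figure D1:**
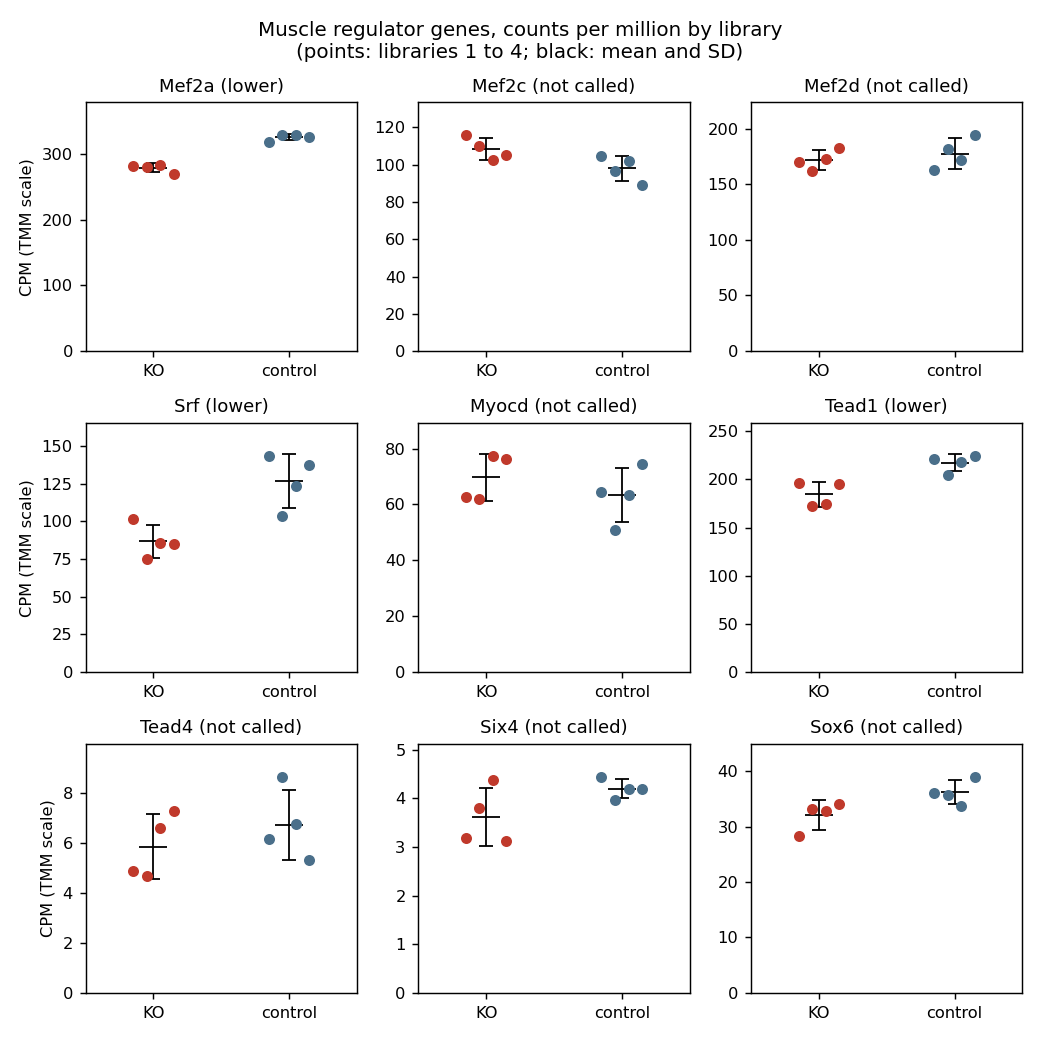
Level of each member in CPM on the TMM scale (vertical axes, each from 0) in the 4 KO and 4 control libraries (points), with mean and SD in black. Srf, Mef2a and Tead1 show no overlap between the groups, while the other 6 members overlap.

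**Figure D2:**
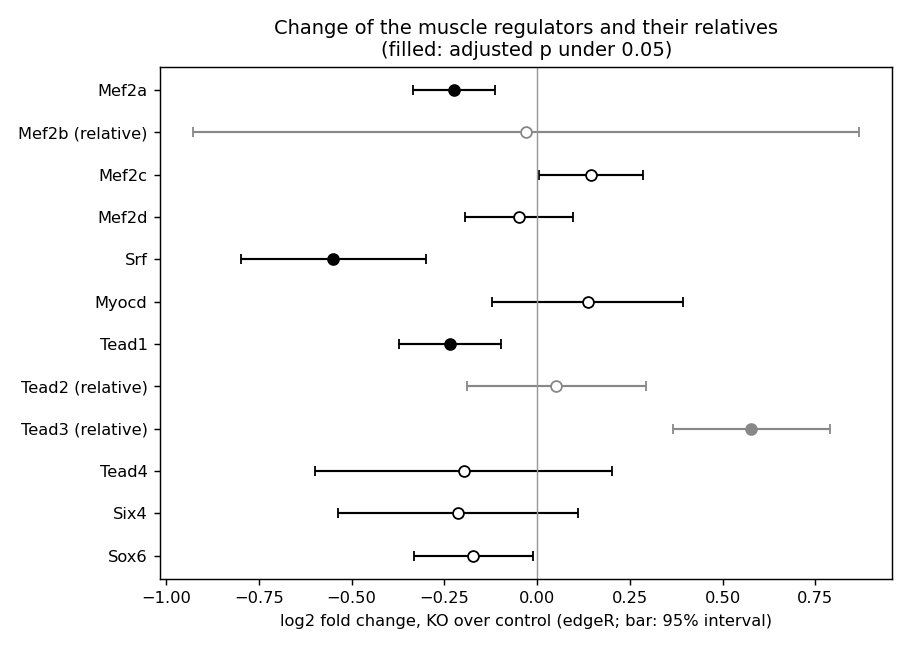
Log2 fold change of KO over control with its 95% interval from edgeR for the members (black) and for Mef2b, Tead2 and Tead3 (grey); filled points passed an adjusted p of 0.05. Srf lies at -0.55, Mef2a at -0.22 and Tead1 at -0.24, and Tead3 at 0.58.

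Srf, whose protein binds CArG boxes in actin, other cytoskeletal and immediate early genes, had the largest change of the 9. The gene lies on chromosome 17 (46548329 to 46556175, minus strand, GRCm38). It had 101, 74.9, 86.0 and 84.8 CPM in KO 1 to 4, against 144, 103, 123 and 137 CPM in control 1 to 4. Every KO library was below every control library, though KO 1 was close to control 2. The group means were 86.8 ± 10.9 and 127 ± 17.9 CPM in KO and control (SD, n = 4 each), a decrease of 1.46-fold (log2 fold change -0.55, SE 0.11, 95% interval -0.80 to -0.30, edgeR adjusted p = 0.00462). The log2 fold change was -0.64 to -0.48 with each library left out, with an adjusted p of at most 0.0176. It was called against controls 1 and 2 alone (adjusted p = 0.0454) and against controls 3 and 4 alone (0.00283).

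The sequence before the start of Srf is shown because SRF's own recognition motif lies in it. In RefSeq's GRCm38.p6 window the CArG box matched at bases -82 to -73 and -62 to -53 from the start site, counted with -1 as the last base before the start. CArG boxes were found in 1.63% of 32851 promoter windows of 300 bases (250 before and 50 after a start site), searched on both strands. A match describes these letters and does not show that SRF was bound there. The 250 bases before the start, on the minus strand at chr17:46556163-46556412, carry the matches in capitals.
Srf: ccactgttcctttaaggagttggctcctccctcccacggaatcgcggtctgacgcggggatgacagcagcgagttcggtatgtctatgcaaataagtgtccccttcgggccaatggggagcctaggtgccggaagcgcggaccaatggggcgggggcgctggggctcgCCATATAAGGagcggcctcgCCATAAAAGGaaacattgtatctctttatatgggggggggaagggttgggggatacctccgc

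Myocd, whose product is a coactivator of SRF in heart and smooth muscle, was not called. Its gene is on chromosome 11 (65176561 to 65269989, minus strand). It had 62.7, 62.1, 77.5 and 76.4 CPM in KO 1 to 4, against 64.5, 51.0, 63.5 and 74.6 CPM in control 1 to 4. The groups overlapped, with KO 3 and KO 4 the highest of the 8 libraries. The log2 fold change was 0.14 with a 95% interval of -0.12 to 0.39 (edgeR adjusted p = 0.421). Within a library, the log2 ratio of Myocd over Srf was -0.69 to -0.15 in KO and -1.16 to -0.88 in control, without overlap. The mean ratio was 1.61-fold higher in KO (exact two-sided permutation test over 8 libraries, p = 0.0286, the smallest that 70 splits allow, and 0.0714 adjusted over 5 ratios). At least 3 of the 5 ratios would have had to reach that smallest p for any to pass 0.05 after adjustment, and 2 did, so the adjusted value is limited by the number of libraries and ratios.

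Among the MEF2 genes, Mef2a fell and Mef2c and Mef2d were not called. Mef2a lies on chromosome 7 (67231163 to 67372858, minus strand), and the exons of Lysmd4 on the opposite strand overlap 302 of its exonic bases. It had 282, 281, 284 and 269 CPM in KO 1 to 4, against 319, 329, 329 and 325 CPM in control 1 to 4. The groups did not overlap, and libraries within each were alike, with a coefficient of variation of 2.43% in KO and 1.53% in control. Mef2a was 1.17-fold lower in KO (log2 fold change -0.22, SE 0.05, 95% interval -0.33 to -0.11, edgeR adjusted p = 0.00624, and called in 8 of 8 fits with a library left out).

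Mef2c, a factor of early heart development that endothelial cells express too, is on chromosome 13 (83504034 to 83667080, plus strand). It had 116, 110, 103 and 105 CPM in KO 1 to 4, against 105, 96.8, 102 and 89.3 CPM in control 1 to 4. In all, 3 KO libraries lay above every control library, and KO 3 lay within the control range. The log2 fold change was 0.15 (95% interval 0.01 to 0.29), with an unadjusted edgeR p of 0.0428 that became 0.115 after adjustment over all tested genes. With library size as the only scaling it was called (log2 fold change 0.23, adjusted p = 0.0159). Beside it, the summed endothelial markers ranged over 2817 to 3198 CPM in KO and 2354 to 2531 CPM in control. Of those 10 markers, 6 rose, 1 fell and 3 were not called. Their part in the level of Mef2c was not tested.

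Mef2d, a widely expressed MEF2 gene, is on chromosome 3 (88142372 to 88172086, plus strand). It had 170, 162, 173 and 182 CPM in KO 1 to 4, against 163, 181, 172 and 194 CPM in control 1 to 4. The groups overlapped (log2 fold change -0.05, 95% interval -0.19 to 0.10, edgeR adjusted p = 0.63). Mef2b, the remaining MEF2 gene, was low, with 0.711 ± 0.334 CPM in KO against 0.728 ± 0.311 CPM in control (SD, n = 4 each), and shares 62 exonic bases with Borcs8 on the same strand.

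The start of the coding sequence of the 3 MEF2 members, which encodes the first part of the MADS box, is shown because this is the domain that the relatives share. Of the first 90 coding bases in GENCODE M21 transcripts, 63 were the same in all 3 genes; the capitals mark the 27 positions that differed.
Mef2a: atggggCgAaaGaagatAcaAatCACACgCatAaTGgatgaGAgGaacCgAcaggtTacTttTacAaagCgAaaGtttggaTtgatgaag
Mef2c: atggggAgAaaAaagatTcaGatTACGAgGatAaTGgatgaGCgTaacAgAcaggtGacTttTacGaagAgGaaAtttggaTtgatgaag
Mef2d: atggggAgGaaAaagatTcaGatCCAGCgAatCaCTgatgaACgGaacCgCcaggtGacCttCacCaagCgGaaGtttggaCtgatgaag

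Across the whole coding sequences, the longest exact stretch shared by a pair was 17 bases for Mef2a and Mef2c, 13 for Mef2a and Mef2d and 28 for Mef2c and Mef2d. The promoter of Mef2a held a match to the MEF2 site, a motif found in 3.19% of the promoter windows, at bases -2 to 8 around the start site. The 100 bases around it, on the minus strand at chr7:67372849-67372948, show the match in capitals.
Mef2a promoter: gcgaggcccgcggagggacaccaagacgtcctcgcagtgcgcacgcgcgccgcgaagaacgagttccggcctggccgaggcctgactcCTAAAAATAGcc

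To set MEF2 genes beside each other, levels were divided by exonic length in kilobases. The union of annotated exons was used, which is longer than any single transcript, so the shares below depend on it. It was 14681 bases for Mef2a and 5985 for Mef2d, and before this division Mef2a was above Mef2d in every library. Mef2d made up 52.0 ± 1.82% of the family's CPM per kb in KO and 50.6 ± 2.04% in control (SD, n = 4 each). Mef2a made up 34.5 ± 1.20% in KO and 37.9 ± 1.15% in control, and Mef2c 12.5 ± 0.782% in KO and 10.7 ± 1.10% in control. The family's summed level was 55.1 ± 0.976 CPM per kb in KO and 58.6 ± 2.15 CPM per kb in control. The log2 ratio of Mef2c over Mef2a was -1.47 to -1.28 in KO and -1.87 to -1.61 in control, without overlap. That ratio was 1.29-fold higher in KO (exact two-sided permutation test, p = 0.0286, and 0.0714 adjusted over 5 ratios). The ratios of Mef2d over Mef2a and of Mef2c over Mef2d were 1.13-fold and 1.14-fold higher in KO, with exact permutation p of 0.0571 and 0.171 (0.0952 and 0.214 adjusted over the 5).

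**Figure D3:**
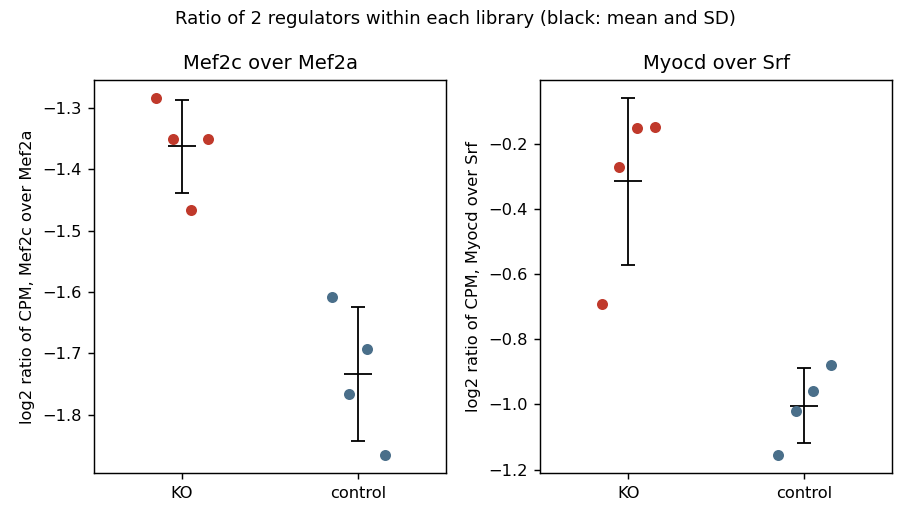
Log2 ratio of the CPM of Mef2c over Mef2a and of Myocd over Srf (vertical axes) within each KO and control library (points), with mean and SD in black. In both panels every KO library lies above every control library.

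**Figure D4:**
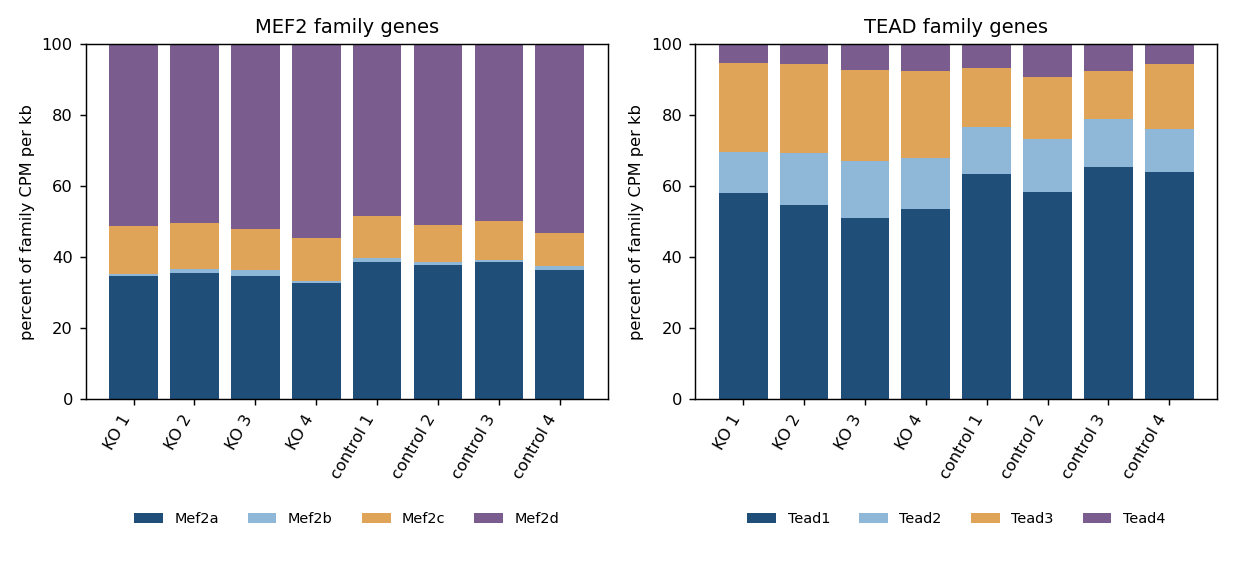
Share of each gene in the summed CPM per kb of exon of the MEF2 genes and of the TEAD genes (vertical axes, percent) in each library (bars). The Tead1 share is lower and the Tead3 share higher in KO, while Mef2d holds the largest MEF2 share in all 8 libraries.

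Among the TEAD genes, Tead1 fell, Tead4 was not called, and Tead3, which is not one of the 9 but belongs to the same family, rose. Tead1, the TEAD factor best known from heart muscle, is on chromosome 7 (112679318 to 112906807, plus strand). It had 196, 172, 175 and 195 CPM in KO 1 to 4, against 222, 204, 218 and 225 CPM in control 1 to 4. The groups did not overlap, and control 2 was the closest to KO. The level was 1.18-fold lower in KO (log2 fold change -0.24, SE 0.06, 95% interval -0.37 to -0.10, edgeR adjusted p = 0.0157). That call was lost without KO 2 (0.0523) or KO 3 (0.0552), and against controls 1 and 2 alone (0.0918).

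Tead4, a TEAD factor of skeletal muscle and early embryos, is on chromosome 6 (128224288 to 128300823, minus strand). It had 4.87, 4.66, 6.59 and 7.29 CPM in KO 1 to 4, against 6.14, 8.65, 6.74 and 5.32 CPM in control 1 to 4. The groups overlapped, with means of 5.85 ± 1.29 CPM in KO and 6.71 ± 1.42 CPM in control (SD, n = 4 each). Its log2 fold change was -0.20 with a 95% interval of -0.60 to 0.20 (edgeR adjusted p = 0.458), so a decrease as large as that of Tead1 was not detectable at this spread. The ratio of Tead4 over Tead1 was 1.03-fold higher in KO (exact permutation p = 0.886, also after adjustment over the 5 ratios).

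Tead3 had 41.8, 39.0, 43.8 and 44.1 CPM in KO 1 to 4, against 29.1, 30.1, 22.3 and 31.5 CPM in control 1 to 4. Every KO library was above every control library, and the gene rose 1.49-fold (log2 fold change 0.58, SE 0.10, edgeR adjusted p = 0.000995). Per kb of exon, Tead1 made up 54.3 ± 2.90% of the family's CPM in KO and 62.8 ± 3.02% in control, and Tead3 25.1 ± 0.566% in KO and 16.5 ± 2.03% in control (SD, n = 4 each). The family's summed level was 25.0 ± 1.56 CPM per kb in KO and 25.5 ± 0.620 CPM per kb in control. Tead3 and Tead4 share an exact coding stretch of 59 bases, while Tead1 shares at most 17 with either. The sources used here do not say how reads that match more than 1 gene were counted.

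Six4, whose protein is a homeobox factor of muscle genes, was the least abundant member. It is on chromosome 12 (73099609 to 73113456, minus strand). It had 3.19, 3.80, 4.39 and 3.12 CPM in KO 1 to 4, against 4.45, 3.96, 4.19 and 4.20 CPM in control 1 to 4. In all, 3 KO libraries were below every control library and KO 3 was within their range (log2 fold change -0.21, 95% interval -0.54 to 0.11, edgeR adjusted p = 0.315).

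Sox6 is on chromosome 7 (115470872 to 116038796, minus strand). It had 28.3, 33.2, 32.7 and 34.2 CPM in KO 1 to 4, against 36.1, 35.8, 33.7 and 39.0 CPM in control 1 to 4. In all, 3 KO libraries were below every control library, and KO 4 was just above control 3. The log2 fold change was -0.17 (95% interval -0.33 to -0.01), with an unadjusted edgeR p of 0.0382 and an adjusted p of 0.105, so it was not called.

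Levels per kb of exon put the members in the order Srf, Mef2d, Mef2a, Tead1, Myocd, Mef2c, Sox6, Tead4 and Six4, in KO and in control alike. The order depends on the union of annotated exons taken as length: 2893 bases for Srf, 5985 for Mef2d and 14681 for Mef2a. Without division by length, control means were 326 CPM for Mef2a, 177 for Mef2d and 127 for Srf, which reverses the ranks of these genes. The ranks do not show which member had the most transcripts. In KO, Srf had 30.0 ± 3.78 and Mef2d 28.7 ± 1.44 CPM per kb (SD, n = 4 each), and their libraries overlapped. In control, Srf had 43.9 ± 6.18 and Mef2d 29.7 ± 2.27 CPM per kb, without overlap. Sox6 and Tead4 overlapped in KO (1.91 to 2.30 and 1.30 to 2.03 CPM per kb) and in control (2.27 to 2.63 and 1.48 to 2.40). The remaining neighbours did not overlap in either group. Six4 had 0.334 ± 0.0548 CPM per kb in KO and 0.387 ± 0.0184 in control.

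Promoter windows were available for 6 members, in 14 windows. Besides the matches in Srf and Mef2a, the MEF2 site matched in 1 of 6 windows of Sox6. The TEAD site GGAATG, present in 14.7% of all windows, matched for Mef2c and Sox6. The sine oculis homeobox site TCAGGTT (4.07% of windows) matched for Mef2c, Six4 and Sox6, and the SOX site ACAAAG (18.7%) for Mef2c and Sox6. The E box CANNTG was in 72.3% of all windows, on either strand, and among the members in windows of Mef2c and Sox6. These shares are per window, while Mef2c had 3 windows and Sox6 had 6, so they are not shares of genes with a match. No matches overlapped, and the single window of Mef2d held none of the 6 motifs.

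For each called member, the tested genes with the most similar pattern over the 8 libraries were found by the root-mean-square difference of centred log2 CPM. Nearest to Srf were Mmachc (0.10) and Rel (0.10), against a root-mean-square spread of Srf itself of 0.32. Nearest to Mef2a were Med23 (0.02) and Mff (0.03), with a spread of 0.12 for Mef2a. Nearest to Tead1 were Ecpas (0.03) and Hspb8 (0.04), with a spread of 0.14 for Tead1. These genes share the same libraries, depth and group difference with the members.

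The cofactors of MEF2 and SRF moved in both directions. Of 18 relatives and cofactors, 4 rose and 4 fell by edgeR, and 10 were not called (44.4% called, against 27.9% of all tested genes), with a median log2 fold change of 0.02. Fhl2, a LIM-domain protein that binds SRF, fell to 274, 218, 234 and 211 CPM in KO 1 to 4, against 480, 344, 423 and 432 CPM in control 1 to 4. Every KO library was below every control library, a decrease of 1.79-fold (edgeR adjusted p = 0.000187). Its relative Fhl1 rose 1.37-fold, to 277 ± 19.6 CPM in KO against 203 ± 7.47 CPM in control (SD, n = 4 each; edgeR adjusted p = 0.000268). Hdac7, a class IIa deacetylase that represses MEF2, rose 1.28-fold (adjusted p = 0.000467), and Elk1, an ETS-domain partner of SRF, rose 1.30-fold (adjusted p = 0.000843). Hdac9 and Mamstr, a coactivator of MEF2, both named after their values were seen, fell 1.35-fold and 1.54-fold (edgeR adjusted p = 0.0157 and 0.00924). Both calls were lost against controls 1 and 2 alone, and that of Hdac9 also without KO 4 (0.0509) and with library size as the only scaling. The myocardin-related factors, listed as Mkl1 and Mkl2, were not called (adjusted p = 0.0952 and 0.714). The count of lower cofactors was 2 without KO 4.

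Of 26 relatives and cofactors of TEAD, sine oculis homeobox and SOX factors, 22 were tested, 2 rose, 3 fell and 17 were not called, with a median log2 fold change of 0.02. The share called was 22.7%. Vgll3, a vestigial-like cofactor of TEAD, rose 1.47-fold beside Tead3, to 17.3 ± 2.90 CPM in KO against 11.7 ± 1.34 CPM in control (SD, n = 4 each; edgeR adjusted p = 0.00609), a call lost against controls 1 and 2 alone (0.0932). Among partners of sine oculis homeobox factors, Eya1 fell 1.60-fold to 7.14 ± 1.22 CPM in KO against 11.4 ± 0.875 CPM in control, and the corepressor Dach1 fell 1.82-fold to 6.48 ± 0.910 CPM in KO against 11.8 ± 1.35 CPM in control (edgeR adjusted p = 0.00179 and 0.000344). Eya2, Eya3 and Eya4 were not called. The TEAD coactivator genes Yap1 and Wwtr1, which encodes TAZ, had log2 fold changes of -0.06 and 0.01, with 95% intervals of -0.18 to 0.06 and -0.12 to 0.13.

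Of 9 myogenic determination factors, 2 were tested and neither was called (Msc and Myf6, edgeR adjusted p = 0.958 and 0.0767). The remaining 7, among them Myod1 and Myog, did not pass the filter on low counts.

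**Figure D5:**
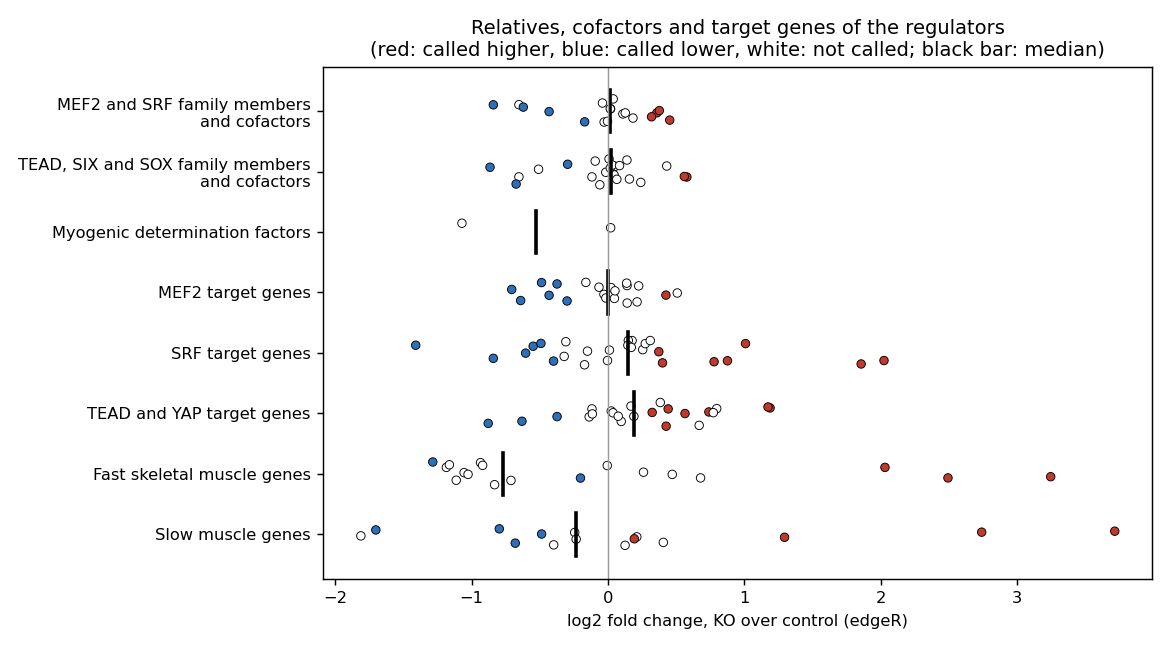
Log2 fold change of KO over control (horizontal axis) for each tested gene of the 8 lists of relatives, cofactors and target genes; red was called higher, blue lower and white not called, and the black bar is the list's median. The TEAD and YAP targets and the SRF targets hold called genes on both sides of 0, and the MEF2 targets 6 lower and 1 higher.

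Known target genes of the members were read from the same fit, as a description of each list. Of 20 MEF2 target genes, the member Myocd among them, 6 fell, 1 rose and 13 were not called (35% called), with a median log2 fold change of 0.00. Hdac9 is counted as lower both here and among the cofactors. Myl4, the atrial essential light chain, fell 1.63-fold to 3569 ± 367 CPM in KO, against 5823 ± 515 CPM in control (SD, n = 4 each; edgeR adjusted p = 0.000124). Myom2, of the sarcomere's M-band, fell 1.40-fold (adjusted p = 0.000612), and Hrc, a calcium-binding protein of the sarcoplasmic reticulum, 1.30-fold (0.00308). Pgam2, the muscle phosphoglycerate mutase, fell 1.56-fold (adjusted p = 0.00699), a call lost against controls 1 and 2 alone (0.0633) and when low counts were not filtered (0.0508). The gene that rose, Des, encodes the intermediate filament desmin (log2 fold change 0.42, edgeR adjusted p = 0.00709), and was named after its value was seen. Its call was lost against controls 3 and 4 alone. The count of higher targets was 2 without KO 1 and 2 without control 2. Most cardiomyocyte markers fell beside this list, as given above, and Myl4 is in both lists.

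Of 26 SRF target genes, Srf itself among them, 7 rose, 6 fell and 13 were not called (50% called), with a median log2 fold change of 0.15. Fhl2 is counted as lower both here and among the cofactors. Tpm1, a tropomyosin of striated muscle, fell 1.52-fold to 3684 ± 361 CPM in KO, against 5601 ± 312 CPM in control (SD, n = 4 each; edgeR adjusted p = 0.000171). Zyx, of focal adhesions, rose 1.29-fold (adjusted p = 0.00139). Tagln, a smooth muscle actin-binding protein, had low counts, with 2.73 ± 0.251 CPM in KO against 0.669 ± 0.200 CPM in control. It rose 4.06-fold (edgeR adjusted p = 6.35e-05). Exons of Gm48529 and Pcsk7 on the opposite strand overlap 1241 and 108 of its exonic bases. Reads of these genes cannot be told apart here, so both the level and the rise of Tagln carry that limit. Acta2 and Cnn1, also smooth muscle genes and named after their values were seen, moved apart: Acta2 had 76.3 ± 20.5 CPM in KO and 203 ± 99.5 CPM in control, and Cnn1 28.3 ± 12.8 CPM in KO and 7.81 ± 4.41 CPM in control (SD, n = 4 each). Their edgeR adjusted p were 0.0375 and 0.0351. The call of Acta2 was lost without any 1 of the KO libraries, control 2 or control 4, with an adjusted p of 0.0949 at the most. It was also lost with the Y-linked covariate (edgeR adjusted p = 0.0836), unfiltered low counts (0.0728), and KO 2 and control 2 both left out (0.127). Against controls 1 and 2 or 3 and 4 alone, Acta2 was not called either (0.0504 and 0.112). The call of Cnn1 was lost without KO 1, KO 3, KO 4, control 1 or control 3, with an adjusted p of 0.0944 at the most. It was also lost with unfiltered low counts (edgeR adjusted p = 0.071), KO 2 and control 2 both left out (0.0592), and controls 3 and 4 alone (0.143). The immediate early genes, named after their values were seen, were divided. Egr1, Egr2 and Egr3 rose 1.83-fold, 2.01-fold and 1.71-fold without overlap between the groups (edgeR adjusted p = 0.0292, 0.0231 and 0.0248). Egr1 averaged 44.0 ± 10.1 CPM in KO and 24.0 ± 7.21 CPM in control (SD, n = 4 each). With a library left out, Egr1 was called in 2 of 8 fits (lost without KO 1, KO 3, KO 4, control 1, control 3 or control 4), Egr2 in 4 of 8 (lost without KO 1, KO 4, control 3 or control 4) and Egr3 in 4 of 8 (lost without KO 1, KO 4, control 1 or control 4). Their highest adjusted p were then 0.0772, 0.0726 and 0.071. Against controls 1 and 2 alone, no Egr gene was called (edgeR adjusted p = 0.131, 0.163 and 0.149). Egr3 was also not called by limma-voom (0.0542), with the Y-linked covariate (0.0508) or against controls 3 and 4 alone (0.11). Egr1 and Egr2 were not called with the replicate block (0.0546 and 0.0564), nor Egr1 without the filter on low counts (0.0893). Fos, Fosb and Junb were not called (edgeR adjusted p = 0.594, 0.505 and 0.0776). Junb was called with library size as the only scaling (0.0212) and with KO 2 and control 2 both left out (0.0496). The count of higher targets was 3 without KO 4 and 4 without control 1 or control 4, and that of lower targets 3 without KO 2 or KO 3. Smooth muscle and pericyte markers, 10 in all, summed to 702 to 868 CPM in KO and 762 to 1075 CPM in control, and their part in this list was not tested. Acta2, Tagln and Cnn1 are in both lists, so the marker sum is not separate from these targets.

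Of 24 TEAD and YAP target genes, 23 were tested, 7 rose, 3 fell and 13 were not called (43.5% called), with a median log2 fold change of 0.19. Tgfb2, a TGF-beta ligand, rose 2.25-fold to 71.2, 54.5, 45.9 and 61.3 CPM in KO 1 to 4, against 28.7, 24.2, 26.8 and 23.7 CPM in control 1 to 4 (edgeR adjusted p = 6.93e-05). Crim1, a transmembrane protein that binds BMPs, rose 1.67-fold (adjusted p = 0.00043) and Myof, of membrane repair, 1.34-fold (0.000916). F3, which encodes tissue factor, fell 1.84-fold to 23.2 ± 1.62 CPM in KO, against 42.7 ± 5.88 CPM in control (SD, n = 4 each; edgeR adjusted p = 4.83e-05). Cyr61, Ankrd1 and Ctgf are widely used readouts of YAP and were named after their values were seen. Cyr61 rose 2.28-fold to 65.3, 49.7, 33.6 and 55.7 CPM in KO 1 to 4, against 25.9, 32.3, 16.1 and 15.4 CPM in control 1 to 4 (edgeR adjusted p = 0.0264). The groups did not overlap, though KO 3 was close to control 2, and the call held in 2 of 8 fits with a library left out (lost without KO 1, KO 2, KO 4, control 1, control 3 or control 4, adjusted p of 0.0654 at the most). It was also lost when low counts were not filtered (edgeR adjusted p = 0.0652) and against controls 1 and 2 alone (0.0966). Ankrd1 and Ctgf had log2 fold changes of 0.80 and 0.67 and were not called (edgeR adjusted p = 0.192 and 0.166). However, Ankrd1 was called with the replicate block (0.000687). Ctgf was called without control 2 (0.0257) and against controls 3 and 4 alone (0.0174). The count of lower targets was 1 without control 2 and 1 without control 3. Fibroblast, epicardial and macrophage markers had medians of 0.34, 0.40 and 0.39 on the log2 scale beside this list. Of the 10 in each, 6, 7 and 4 were called higher and 1, 0 and 0 lower. The part of these markers in the list was not tested.

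Genes of fast and slow muscle, among them known targets of SIX4 and SOX6, held large changes in both directions. Of 20 fast-fibre genes, 18 were tested: 3 rose, 2 fell and 13 did not pass (27.8% called), with a median log2 fold change of -0.77. Atp2a1, the calcium pump of fast fibres, rose to 2001 ± 81.5 CPM in KO, against 211 ± 22.3 CPM in control (SD, n = 4 each; edgeR adjusted p = 5.15e-10). Tnni2, fast troponin I, had a log2 fold change of 2.49 and Casq1, a calcium-binding protein of the sarcoplasmic reticulum, of 2.03 (edgeR adjusted p = 2.89e-06 and 0.000103). Pygm, muscle glycogen phosphorylase, fell by 0.20 on the log2 scale (edgeR adjusted p = 0.019), a call lost without KO 3, KO 4 or control 4 (0.0514 to 0.0543), with KO 2 and control 2 both left out (0.0537), against controls 1 and 2 alone (0.117) and with library size as the only scaling (log2 fold change -0.12, 0.105). The lower count in the fast list moved with single libraries: it was 10 without KO 2, 1 without KO 4, control 1 or control 3, and 0 without KO 3 or control 4, and the higher count was 5 without KO 3. The skeletal myosin gene Myh4, named after its values were seen, had 122, 327, 82.3 and 73.6 CPM in KO 1 to 4, against 301, 378, 351 and 327 CPM in control 1 to 4. KO 2 was at the control level for this gene and the other KO libraries were below it. The 12 markers of skeletal muscle tissue, 10 of them tested, summed to 838 to 1513 CPM in KO and 1355 to 1430 CPM in control. In that sum, Ckm alone averaged 542 CPM in KO and 534 CPM in control. The tested markers had a median log2 fold change of -0.995, with 1 called lower, 0 higher and 9 not called. Most of them (Myh1, Myh2, Myh4, Mylpf, Tnnt3, Pvalb and Actn3) are also in the fast list, so the medians of these lists are not independent. The part of these markers in these results and in Six4, Tead4 or Sox6 was not tested.

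Of 15 slow-muscle genes, 4 rose, 4 fell and 7 did not pass (53.3% called), with a median log2 fold change of -0.23. Tnni1, slow troponin I, had 129, 80.4, 83.6 and 58.6 CPM in KO 1 to 4, against 6.06, 7.01, 6.79 and 6.90 CPM in control 1 to 4 (edgeR adjusted p = 2.44e-05). All 4 KO libraries were far above all control libraries. Mb, the myoglobin gene, fell to 1127 ± 147 CPM in KO, against 3669 ± 81.8 CPM in control (SD, n = 4 each; edgeR adjusted p = 1.47e-07). Atp2a2, the calcium pump of heart and slow fibres, and Myoz2, a Z-disc protein, fell by 0.80 and 0.68 on the log2 scale (edgeR adjusted p = 1.4e-05 and 7.02e-05). Prox1, a transcription factor chosen for mention after its values were seen, had 66.8 ± 7.98 CPM in KO and 93.7 ± 8.56 CPM in control and fell 1.40-fold (edgeR adjusted p = 0.00185). The other genes of this list that rose, also named after their values were seen, were Tnnt1, Myl3 and Tpm3. They rose 6.68-fold, 2.45-fold and 1.14-fold (edgeR adjusted p = 0.000203, 0.0208 and 0.0331). The higher count in the slow list was 2 without KO 1, control 2 or control 4.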

How the data were processed

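The authors deposited raw read counts for each gene (whole numbers), 1 column per library; the submitters' processing notes name STAR, DESeq2 and mm10 and give no versions. How reads were assigned to genes, with or without strand, is not given in the sources used here, so reads of overlapping antisense genes cannot be told apart. Columns were matched to samples by vector and number, and coordinates and exon lengths come from GENCODE M21 (GRCm38). Per-sample depth was 34002292 to 40588007 counts, and counting limits cover counting error only.

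Genes were kept by filterByExpr (minimum count 10, minimum total 15), scaled by TMM in edgeR 4.0.16 (R 4.3.3) and compared by edgeR's robust quasi-likelihood fit of group alone. P-values were adjusted by Benjamini-Hochberg over 18033 genes and called under 0.05. Ratios of members were compared by an exact permutation test over libraries. The fit was tested on simulated data. DESeq2 1.42.0, limma-voom (limma 3.58.1), other scalings and filters, a replicate block, a Y-linked covariate and left-out libraries were alternatives.

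The members, lists and tests were chosen with earlier results of these data known. Named by rule were all members, Chd4, up to 4 genes of each list with the smallest p and a mean of at least 1 CPM, and the 2 nearest patterns of each called member (clone names left out). Marker lists are given as sums and counts. Promoters are RefSeq's (GRCm38.p6). The log2 offset for nearest patterns was 0.5 CPM. The labels do not tie libraries to separate mice, and the spread behind each p-value may therefore be technical. All 8 libraries were kept as distinct (chi-square per degree of freedom 12.5 to 32.0 within groups). KO and control libraries had no name prefix in common, so prefix and group cannot be told apart. Controls 1 and 2 shared a prefix, and controls 3 and 4 shared a different prefix. Y-linked transcripts were low in the former and high in the latter. Prefix and Y-linked level therefore cannot be told apart in fits against either pair of controls alone.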

Additional observations from a re-analysis of the deposited data

Results flagged for a closer look

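Within groups of 4 libraries, 134 groups of values were examined for a library far from the other 3, and 4 were found, where chance gives about 1 in 20. Only the members and the list genes named by rule were examined. None was a member. Myl4 was at 4116 CPM in KO 1, against 3344 to 3441 CPM in the other KO libraries. Tie1, an endothelial receptor gene, was at 184 CPM in KO 3, against 169 to 171 CPM in the other KO libraries, and Postn, a matrix gene of fibroblasts, at 286 CPM in KO 1, against 362 to 371 CPM. Snap25, a neuronal gene, was at 0 CPM in control 2, where a count of 3 is 0.0756 CPM, against 4.59 to 4.81 CPM in the other control libraries. Snap25 was also at 0 CPM in KO 2, where a count of 3 is 0.0744 CPM, against 1.30 to 2.19 CPM in the other KO libraries, and KO 2 and control 2 are the libraries that stood apart on the second principal component. The slow-muscle genes Myl2, Myl3 and Myh7b were not examined. They were highest among controls in control 1, at 268, 500 and 9.52 CPM. The other controls had 19.5 to 44.9, 196 to 267 and 2.63 to 4.08 CPM.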

How the results depend on the processing

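Srf stayed lower and called under all alternatives run, and Mef2a under all but library-size scaling. With library size as the only scaling, the members called were 1 lower and 1 higher: Mef2a was at -0.14 (adjusted p = 0.0541), Tead1 at -0.16 (0.0502) and Mef2c at 0.23 (0.0159). Tead1 was at -0.23 against controls 1 and 2 alone (0.0918) and at -0.27 to -0.20 with a library left out. With a library left out, 2 to 3 members were lower. KO 2 and control 2 left out together, chosen after seeing the data, gave 3 lower and 0 higher members. Against controls 3 and 4 alone, 1700 genes were higher, against 2677 in all.

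Of the lists, fast muscle genes gave 3 to 5 higher and 0 to 10 lower with a library left out, 5 higher by DESeq2, 5 lower with the replicate block and 9 lower with KO 2 and control 2 left out. Left-out libraries gave 2 to 4 lower MEF2 and SRF cofactors, 1 to 2 higher MEF2 targets, 0 to 1 lower myogenic factors, 2 to 5 higher slow genes, 3 to 8 higher and 3 to 6 lower SRF targets, and 1 to 3 lower TEAD targets. Without KO 2 and control 2, the higher MEF2 targets were 2, the higher slow genes 2 and the lower TEAD targets 1, and the replicate block gave 2 higher MEF2 targets. The cause of these shifts was not tested.

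Library numbers were not treated as pairs in the main fit. Same-number correlations ran from -0.082 to 0.214, and those of unlike numbers from -0.233 to 0.179. The highest was that of KO 2 and control 2. With the replicate block 3 members were lower and 0 higher. Ratios against controls 1 and 2 or 3 and 4 alone are values with no test. For 58 named list genes, 1078 of 1160 values kept their side of the threshold, 62 lost the call and 20 gained it. There were 0 reversals of direction where either fit was called. A change of direction between fits without a call was not counted. Msc, for example, had log2 fold changes of -0.09 to 0.21 with a library left out.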
